A study of Mus musculus with 12 samples.

Results

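The 10 genes described here encode surface molecules by which an antigen-presenting cell signals to a lymphocyte or holds on to it: *Cd40*, *Cd83*, *Cd80*, *Cd86*, *Icosl*, *Cd274*, *Pdcd1lg2*, *Tnfsf9*, *Icam1* and *Vcam1*. They were taken by symbol from a count table of 55335 genes, in which each of the 10 symbols occurs once. RNA from mouse bone-marrow-derived macrophages (BMDMs) and livers was sequenced in 12 libraries, 3 for each genotype in each tissue. *Tshr* MKO mice carry floxed alleles of *Tshr*, the thyrotropin (TSH) receptor gene, together with Lyz2-Cre, and *Tshr* f/f mice carry the floxed alleles without Cre. Lyz2-Cre is active in myeloid cells, including macrophages and neutrophils, so that in liver most RNA comes from hepatocytes, in which the allele is not meant to recombine. BMDMs came from male C57BL/6N mice aged 6 weeks in the sample records (6 to 8 weeks in the study's methods). They were grown for 7 days with 10 ng/mL M-CSF (the growth factor that drives marrow cells to macrophages), and were then exposed to TSH at 1 ng/mL during 24 h, whatever the genotype, so no library shows the cells without TSH. Livers came from male mice that ate a diet rich in fat (HFD) from the age of 6 weeks on for a further 9 weeks, then went without food for 8 h and received insulin at 1.5 U/kg, and the tissue was taken 5 min later, again in both genotypes.

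A T cell that meets its antigen needs a second signal from the presenting cell. CD80 and CD86 give it through CD28, ICOSL through ICOS and TNFSF9 (4-1BB ligand) through the receptor 4-1BB, whereas PD-L1 (*Cd274*) and PD-L2 (*Pdcd1lg2*) dampen the T cell through PD-1. CD40 receives the answering signal from the T cell, and ICAM-1 and VCAM-1 hold leukocytes by binding their integrins. In macrophages many of these genes are known to be induced by interferon-gamma or by NF-kB, while in liver VCAM-1 and ICAM-1 are also carried by sinusoidal endothelium and Kupffer cells.

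Each library held between 28962878 and 40954211 counts. Levels are given as CPM (read counts scaled to a common library size) after TMM scaling, which corrects library totals for a few very abundant genes. For these levels TMM was run within the 6 libraries of each tissue, so CPM of BMDMs and livers are not on a common scale. The test between tissues used its own scaling over the libraries compared. The scaling factor of f/f BMDM replicate 3 was 0.738 while those of the other 11 libraries were 0.891 to 1.114. *Tshr* itself had 0, 0 and 2 counts in f/f BMDMs, 0, 0 and 5 in MKO BMDMs and 0 in all livers, and the floxed part is the last coding exon alone, so the targeted gene could not check the labels. In the study's own table of receptor counts the liver columns stand under the opposite genotype headings from those of the sample labels. The labels were followed here, the livers are called "labelled MKO" and "labelled f/f", and every direction in liver turns round if the other headings are right. Summed macrophage markers (7 genes, none at 0 counts) were 14800 to 29300 CPM in BMDMs against 123 to 314 CPM in livers, and summed hepatocyte markers (5 genes) were at most 0.0783 CPM in BMDMs against 67100 to 91800 CPM in livers.

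In BMDMs the 10 genes spanned a wide range once the level was divided by exon length, in CPM per kb. In f/f BMDMs *Cd274* stood first, with a mean of 431 CPM per kb (SD 352, n = 3), and even its lowest library, at 180, was above the highest *Icam1* library, at 177. *Pdcd1lg2*, the other PD-1 ligand, stood last at 0.804 CPM per kb (SD 0.254), below every library of its neighbour *Icosl* at 5.76 (SD 3.28). Between these ends came *Icam1* at 114, *Cd40* at 63.8, *Tnfsf9* at 34.9, *Cd86* at 28.4, *Vcam1* at 19.5, *Cd83* at 16.1 and *Cd80* at 9.53 CPM per kb, and in each of these neighbouring pairs the ranges over libraries overlapped. Compared within libraries, *Icam1* was above *Cd40*, *Cd86* above *Vcam1* and *Cd83* above *Cd80* in all 3. The other neighbouring pairs kept their order in 2 libraries, so the full order is not firm. In MKO BMDMs *Cd274* was again first at 78.3 CPM per kb (SD 27.0) and *Icam1* second at 23.5 (SD 5.53), but *Cd83* came next at 14.6 (SD 6.91) and *Vcam1* ninth at 1.63 (SD 0.321). There *Cd274* and *Icam1* were the one neighbouring pair whose ranges did not overlap.

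No gene of the 15372 tested in BMDMs had an adjusted p under 0.05 for MKO against f/f (edgeR quasi-likelihood test, Benjamini-Hochberg), which is 0% of genes and 0 of the 10 described here, and the lowest adjusted p of any gene was 0.218. At an unadjusted p under 0.05, 6 of the 10 were lower in MKO BMDMs, where 10.2% of all genes were, and 0 of the 10 were higher, where 7.73% were. These 6 were *Vcam1*, *Cd40*, *Tnfsf9*, *Cd274*, *Icam1* and *Cd86*. The median log2 fold change of the 10 was -1.81 against 0.01 over all genes tested. DESeq2 on the same counts called 1223 genes at an adjusted p under 0.05, 5 of the 10 among them (*Vcam1*, *Cd274*, *Cd40*, *Icam1* and *Tnfsf9*, each lower in MKO). In 3 genes, *Cd274*, *Icam1* and *Vcam1*, every MKO library lay below every f/f library, as held for 14.0% of all genes, and in 0 of the 10 did every MKO library lie above, as held for 14.8%. With 3 libraries against 3, an exact permutation test of a single gene cannot go below p = 0.1. The study's methods give as many littermate mice as there are libraries in each group, the labels do not tie a library to a mouse, and the p-values measure the spread between these libraries. In RNA of a whole culture, fewer cells of a type and less RNA per cell cannot be told apart.

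**Figure D1:**
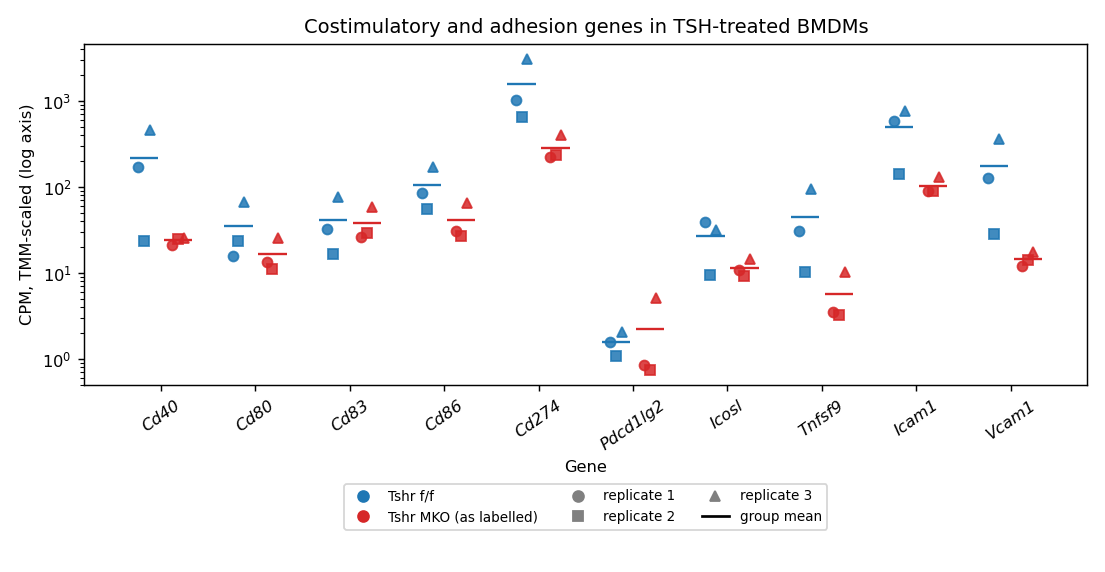
Level of each of the 10 genes in the 6 BMDM libraries, in TMM-scaled CPM on a log axis, with 1 point per library, its shape giving the replicate number, and a line at each group mean. The MKO points of *Cd274*, *Icam1* and *Vcam1* lie below all their f/f points, and f/f replicate 2 lies nearest to the MKO libraries for *Cd40* at 23.7 CPM.

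*Cd40* (GRCm38 chr2:165055627-165072948, plus strand), the receptor for the T cell's CD40 ligand, had 171, 23.7 and 457 CPM in f/f BMDM replicates 1, 2 and 3 and 21.2, 25.0 and 25.2 CPM in the MKO replicates. The MKO libraries were alike, whereas the f/f libraries differed 19.2-fold among themselves and the lowest of them sat within the MKO range. Fitted to all 6 libraries, its log2 fold change was -3.19 (SE 0.95, 95% interval -5.48 to -0.90, edgeR adjusted p = 0.223; DESeq2 adjusted p = 0.00383). *Cd83* (chr13:43784775-43803132, plus strand), a glycoprotein of mature dendritic cells that also stabilises MHC class II and CD86 at the surface, had 32.6, 16.4 and 75.1 CPM in f/f and 25.8, 29.0 and 58.0 CPM in MKO. These groups overlapped, with a log2 fold change of -0.13 (SE 0.59, interval -1.55 to 1.28, adjusted p = 0.911), and the sign turned to 0.17 without TMM scaling. The count of *Cd40* over that of *Cd83* in the same library, which needs no scaling, was 5.24, 1.45 and 6.09 in f/f and 0.821, 0.862 and 0.435 in MKO, a ratio whose groups did not overlap; this pair and the other ratios below were chosen with the values known and carry no test.

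*Cd80* (chr16:38455561-38496335, plus strand) and *Cd86* (chr16:36603869-36666081, minus strand) encode the B7-1 and B7-2 ligands shared by CD28 and its inhibitory relative CTLA-4. *Cd86* had 85.3, 54.7 and 172 CPM in f/f BMDMs and 30.2, 27.1 and 65.4 CPM in MKO, so that MKO replicate 3 alone lay above an f/f library. Its log2 fold change was -1.35 (SE 0.52, interval -2.61 to -0.09, adjusted p = 0.262; DESeq2 adjusted p = 0.0936). *Cd80* had 15.7, 23.2 and 67.0 CPM in f/f and 13.3, 11.1 and 25.4 CPM in MKO, and here too MKO replicate 3 was above f/f replicates 1 and 2. The log2 fold change of *Cd80*, -1.09 (SE 0.60, interval -2.54 to 0.37, adjusted p = 0.375), did not pass the unadjusted threshold, and its interval reaches from a loss larger than that fitted for *Cd86* to a small gain. *Cd86* counts were 5.45, 2.36 and 2.57 times those of *Cd80* in f/f libraries and 2.27, 2.44 and 2.58 times in MKO, so the balance of the 2 ligands overlapped between genotypes.

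*Icosl* (chr10:78069302-78083913, plus strand), the ligand of ICOS, a receptor on T cells, had 38.5, 9.53 and 31.8 CPM in f/f BMDMs and 10.8, 9.07 and 14.6 CPM in MKO. After TMM scaling it was the one gene of the 10 that was highest in f/f replicate 1 rather than replicate 3, and f/f replicate 2 sat inside the MKO range. With a log2 fold change of -1.21 (SE 0.50, interval -2.43 to 0.01, adjusted p = 0.28) it missed the unadjusted threshold by little.

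The 2 PD-1 ligands lie side by side on chromosome 19, *Cd274* at chr19:29367455-29388095 and *Pdcd1lg2* at chr19:29410919-29471161, both on the plus strand with 22.8 kb between them. *Cd274* had 1020, 651 and 3020 CPM in f/f BMDMs and 219, 236 and 396 CPM in MKO, with no overlap between the groups. The log2 fold change was -2.46 (SE 0.63, interval -3.98 to -0.95, adjusted p = 0.218; DESeq2 adjusted p = 0.00175), a fitted level 5.51 times lower. *Pdcd1lg2* had 63, 47 and 54 counts in f/f (1.58, 1.08 and 2.07 CPM) and 32, 28 and 213 counts in MKO (0.836, 0.747 and 5.13 CPM). MKO replicates 1 and 2 were thus below all f/f libraries and MKO replicate 3 above them all, and the log2 fold change was 0.51 (SE 0.80, interval -1.42 to 2.45, adjusted p = 0.747). Without MKO replicate 3 it was -0.99 (adjusted p = 0.379). *Cd274* counts were 643, 605 and 1460 times those of *Pdcd1lg2* in f/f libraries and 263, 316 and 77.2 times in MKO.

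The counts of these neighbours carry a limit on strand. *A930007I19Rik*, an antisense gene that overlaps *Pdcd1lg2* on the opposite strand, had 148 to 566 counts in BMDM libraries, more than *Pdcd1lg2* itself in every one of them, and *AC119228.1*, antisense to *Cd274*, had 0 to 489. *Gm11110* overlaps *Tnfsf9* in the same way and had 30 to 246 counts, while the antisense genes over *Icam1* and *Vcam1* had 0. The libraries were strand-specific but the strand setting of the counting is not given in the sources used here, so for *Pdcd1lg2* and *Tnfsf9* the reads of the gene and its partner could not be told apart with certainty.

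*Tnfsf9* (chr17:57105325-57107757, plus strand), the ligand of 4-1BB, had 30.7, 10.2 and 94.3 CPM in f/f BMDMs and 3.47, 3.23 and 10.3 CPM in MKO. The groups met at a single point, MKO replicate 3 standing just above f/f replicate 2. Its log2 fold change was -2.99 (SE 0.90, interval -5.16 to -0.82, adjusted p = 0.225; DESeq2 adjusted p = 0.00594). Its counts, 446 to 2456 in f/f and 121 to 426 in MKO, kept the groups apart, as did CPM without TMM scaling.

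*Icam1* (chr9:21015985-21028817, plus strand), whose product binds the beta2 integrins LFA-1 and Mac-1, had 581, 139 and 770 CPM in f/f BMDMs and 88.6, 88.5 and 130 CPM in MKO. *Vcam1* (chr3:116109949-116129688, minus strand), whose product binds VLA-4, had 128, 28.4 and 363 CPM in f/f and 11.9, 13.9 and 17.5 CPM in MKO. Neither gene overlapped between genotypes, although f/f replicate 2 came close to the MKO libraries in both. The log2 fold change of *Icam1* was -2.28 (SE 0.61, interval -3.74 to -0.81, adjusted p = 0.218; DESeq2 adjusted p = 0.00383). That of *Vcam1*, the largest of the 10, was -3.58 (SE 0.88, interval -5.69 to -1.47, adjusted p = 0.218; DESeq2 adjusted p = 0.000242). The count of *Icam1* over that of *Vcam1* was 4.55, 4.88 and 2.12 in f/f libraries and 7.44, 6.36 and 7.44 in MKO, higher in every MKO library.

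Most of the 10 genes were high or low in the same libraries of a group. After TMM scaling f/f replicate 3 was the highest f/f library for 9 of the 10, f/f replicate 2 the lowest for 9 of the 10, and MKO replicate 3 the highest MKO library for all 10. Without that scaling f/f replicate 1 was the highest f/f library for *Icam1* (577 against 568 CPM in f/f replicate 3) and *Pdcd1lg2* (1.57 against 1.53 CPM) too. *Cd40* was then highest in MKO replicate 2 (27.8 against 25.6 CPM in MKO replicate 3). Over the 6 BMDM libraries, which share the split into genotypes and the scaling, the Pearson correlation of log2 CPM was 0.98 between *Icam1* and *Vcam1*, 0.98 between *Cd40* and *Vcam1*, 0.99 between *Cd86* and *Tnfsf9* and 0.96 between *Cd274* and *Cd86*. *Pdcd1lg2* was the least like the rest, at 0.24 with *Cd40* and 0.34 with its neighbour *Cd274*, and *Cd83* reached 0.51 with *Cd274* and 0.72 with *Pdcd1lg2*. With so few libraries such values are common: 645 other genes reached a correlation over 0.95 with *Cd274* and 12 with *Pdcd1lg2*. Among named genes the closest to *Cd274* were *Ptgs2* (the inducible cyclooxygenase), *Src* and *Prdx5*, those closest to *Vcam1* were *Zc3h12c*, *Tap2* and *Tank*, and those closest to *Cd86* were *Junb*, *Sri* and *Nsd3*, each at 0.998 or 0.999. The closest to *Cd40* were *Clcn7* and *Aida*, to *Tnfsf9* *Polr1d*, *Phf8* and *Gsdmd*, and to *Icam1* *Cept1*, *Cd200r4* and *Coa5*, again at 0.998 or 0.999. The remaining members had as closest genes *Dnajb12* and *Ccnl2* (*Cd80*), *Adgrf1*, *Rab7* and *Rab43* (*Cd83*), *Samd15*, *Cox5a* and *Apobec3* (*Icosl*), and *Wrn*, *Pdpk1* and *Ccm2* (*Pdcd1lg2*), at 0.979 to 0.999.

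**Figure D2:**
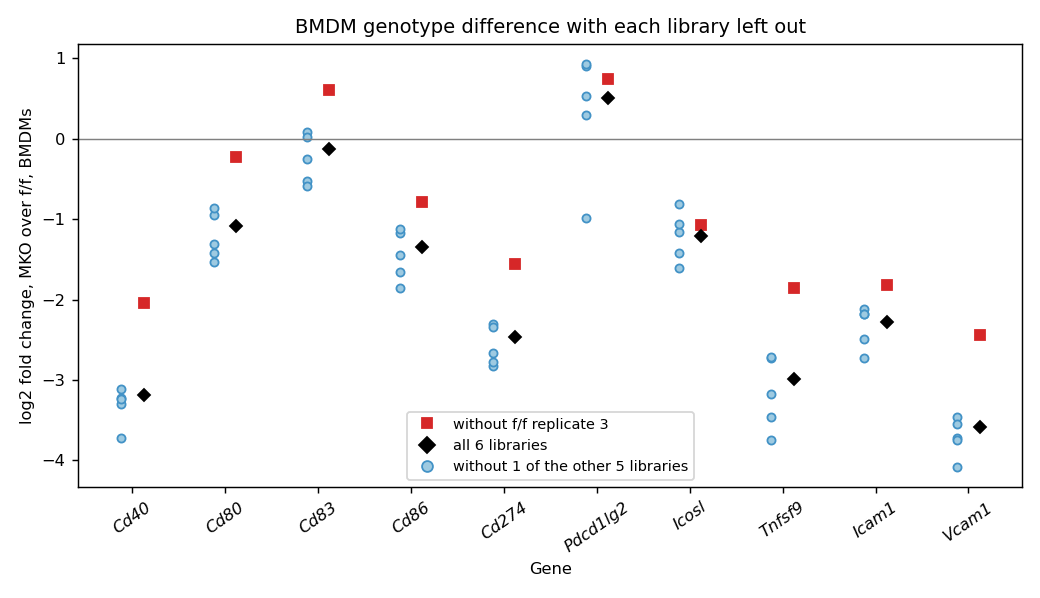
Log2 fold change of each gene in BMDMs (MKO over f/f) with all 6 libraries (diamonds), without f/f replicate 3 (squares) and without each of the other 5 libraries (circles). Without f/f replicate 3 *Vcam1* moves from -3.58 to -2.44 and *Cd80* from -1.09 to -0.23, and *Cd83* crosses 0 to 0.61.

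The size of the difference moved with the libraries that stood apart. Without f/f replicate 3 the number of the 10 genes that were lower at an unadjusted p under 0.05 was 5, *Cd86* being lost at a log2 fold change of -0.78 (adjusted p = 0.459), and *Cd274* was at -1.56. Without f/f replicate 2 the number was 7, with *Icosl* added at -1.61 (adjusted p = 0.0576), and *Cd40*, *Icam1* and *Vcam1* each came to an adjusted p of 0.0515. Without MKO replicate 2 the number was 4, the lowest of the 6 fits, although *Vcam1* at -3.55 and *Icam1* at -2.18 hardly moved in size. The number over all genes moved in the same direction in these fits. At that threshold 1567 of 15372 genes tested were lower with all 6 libraries. It was 1179 of 15925 without f/f replicate 3, 2299 of 15654 without f/f replicate 2 and 820 of 15859 without MKO replicate 2. Over the 6 fits *Vcam1* ranged from -4.08 to -2.44, *Cd40* from -3.72 to -2.04, *Tnfsf9* from -3.74 to -1.86, *Cd274* from -2.83 to -1.56 and *Icam1* from -2.72 to -1.82, so that these 5 kept their sign whichever library was left out.

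Since 5 of the 10 had a promoter window in the RefSeq table (assembly GRCm38.p6, 250 bases before to 50 after a start, where starts are those of RefSeq and can differ from the gene bounds given above), the stretches that hold known binding motifs are shown for these. The windows were searched on both strands for 4 motifs: the NF-kB site, the interferon-factor motif GAAANNGAAA, the interferon-gamma-activated motif GAS written TTCNNNGAA, and the AP-1 motif TGANTCA. Of all 32851 promoter windows, 8.46% held the NF-kB site, 3.44% the interferon-factor motif, 8.30% the GAS motif and 7.81% the AP-1 motif. Capitals mark the match, with up to 30 bases of flank, and each stretch is given on the plus strand; *Cd274*, the most abundant of the 10 in BMDMs, is shown by the 100 bases before its start, which hold none of the 4.

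Icam1 (chr9:21015868-21015936, GAS): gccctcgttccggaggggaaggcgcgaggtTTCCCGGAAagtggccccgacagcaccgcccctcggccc
Icosl (chr10:78069227-78069296, NF-kB, minus strand): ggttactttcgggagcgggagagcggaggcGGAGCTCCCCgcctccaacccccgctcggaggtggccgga
Cd80 (chr16:38458861-38458927, AP-1): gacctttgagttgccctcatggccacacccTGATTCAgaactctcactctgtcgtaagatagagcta
Cd274 (chr19:29367338-29367437, no match): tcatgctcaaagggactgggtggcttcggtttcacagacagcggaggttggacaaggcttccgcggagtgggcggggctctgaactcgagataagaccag
Pdcd1lg2 (chr19:29410669-29410714, NF-kB): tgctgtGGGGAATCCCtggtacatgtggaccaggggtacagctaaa

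The matches can be read beside the BMDM differences. *Icam1*, at a log2 fold change of -2.28, held a GAS match 42 bases before its start and no match to the NF-kB form searched. That does not show that it lacks an NF-kB site of another form. *Pdcd1lg2*, at 0.51, held an NF-kB match 244 bases before its start and *Icosl*, at -1.21, one 111 bases before. *Cd80* held an AP-1 match 42 bases before its start. A match of letters is a description of the window and says nothing of what binds there, and enhancers or starts outside the window were not searched. *Cd40*, *Cd83*, *Cd86*, *Tnfsf9* and *Vcam1* have no window in the table used.

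The genes that carry signals to or from these molecules were read from the same BMDM fit, in which none had an adjusted p under 0.05; of all genes tested, 10.2% were lower and 7.73% higher at an unadjusted p under 0.05. Of 21 genes of CD40 and NF-kB signalling, all tested, 15 were lower and 0 higher in MKO BMDMs at an unadjusted p under 0.05, with a median log2 fold change of -1.17. Those with the lowest p were *Traf1*, an adaptor at CD40 and 4-1BB, at -3.10 (SE 0.73, adjusted p = 0.218), and *Traf2*, another such adaptor, at -0.88 (SE 0.22, adjusted p = 0.218). Of 9 genes between interferon-gamma and PD-L1, 5 were lower and 1 higher, with a median of -0.55. *Jak2*, a kinase at the interferon-gamma receptor, had a log2 fold change of -2.41 (SE 0.48, adjusted p = 0.218), and the one higher gene was *Ifngr1*, a receptor chain, at 0.89 (adjusted p = 0.257). The lists and the 10 genes were chosen with results of these libraries known, so the counts describe these libraries and are no independent evidence of direction.

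On the side of the partner receptors, 5 of 6 genes were tested. The lists named here each held 0 to 2 genes lower or higher at the unadjusted threshold, against 10.2% lower and 7.73% higher of all genes, and nothing is read from counts so small. *Cd28*, the T cell's receptor for CD80 and CD86, was higher in MKO BMDMs, with 5.75, 3.99 and 2.07 CPM in f/f and 19.3, 17.1 and 28.0 CPM in MKO (log2 fold change 2.44, SE 0.40, adjusted p = 0.218). *Tnfrsf9*, which encodes 4-1BB, was lower at -2.67 (SE 1.02, adjusted p = 0.261), while *Ctla4*, *Icos* and *Pdcd1* did not pass. Of 12 other costimulatory or coinhibitory ligands tested of 15, 2 were lower, *Tnfsf15* (-5.93, adjusted p = 0.231) and *Pvr* (-1.07, adjusted p = 0.233), and 1 was higher, *Tnfsf18* (3.27, adjusted p = 0.26, at no more than 1.20 CPM). The 7 leukocyte integrin chains that can bind ICAM-1 or VCAM-1 held 0 lower and 1 higher, *Itgax* at 1.16 (adjusted p = 0.237), and of 13 other adhesion genes tested of 15, 0 were lower and 2 higher, *Selplg* at 0.96 (adjusted p = 0.232) and *Icam2* at 0.68 (adjusted p = 0.271). Of 7 genes of MHC class II presentation 0 passed in either direction, with a median of 0.52, and the lowest p were those of *H2-Eb1* (0.94, adjusted p = 0.545) and *Ciita* (0.81, adjusted p = 0.556).

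Most summed cell markers overlapped between genotypes in BMDMs, while single genes among them differed, none at an adjusted p under 0.05. The summed dendritic cell markers (6 genes, of which 0 to 2 were at 0 counts in a library) were 11.6 to 17.4 CPM in f/f and 8.56 to 9.47 CPM in MKO, and *Ccr7*, the migration receptor of mature dendritic cells, made up much of that sum, with 6.03, 10.9 and 13.4 CPM in f/f and 2.87, 2.37 and 3.83 CPM in MKO (log2 fold change -1.74, adjusted p = 0.218). Without *Ccr7* the other 5 summed to 4.03 to 5.60 CPM in f/f and 5.64 to 6.55 CPM in MKO. Of the 5 dendritic cell markers tested, 2 were below 0 and the median was 0.29, with *Zbtb46* at 0.29, *Clec9a* at 0.68, *Itgae* at 0.78 and *Flt3* at -0.43. The summed stellate cell and fibroblast markers (8 genes) were 1070 to 2680 CPM in f/f and 680 to 1370 CPM in MKO, and were highest in f/f replicate 2, the f/f library with the least *Vcam1* and *Icam1*. The summed macrophage markers were 14800 to 16300 CPM in f/f and 20000 to 29300 CPM in MKO, and *Lyz2*, whose locus drives the Cre, was higher at 0.95 (adjusted p = 0.218), with 8870, 9840 and 8770 CPM in f/f and 16100, 14500 and 22300 CPM in MKO. What the Cre does to the RNA of *Lyz2* was not tested, so this gene does not check the genotype labels of the BMDMs either. Without *Lyz2* the other 6 macrophage markers summed to 5910 to 6440 CPM in f/f and 5490 to 7010 CPM in MKO, which overlapped, and over all 7 the median log2 fold change was 0.08, with 3 below 0 (*Itgam* at -0.51, *Mertk* at -0.36 and *Adgre1* at -0.30). Of 5 Kupffer cell markers 4 were tested, with a median of -0.55. *Timd4* (-2.70, adjusted p = 0.218) and *Marco* (-2.17, adjusted p = 0.218) were lower, *Vsig4* had 1.07 and *Cd5l* 1.63, and *Clec4f* had 0 counts in each BMDM library, with summed levels of 229 to 505 CPM in f/f and 64.8 to 373 CPM in MKO. Neutrophil markers (6 genes) summed to 5.90 to 46.1 and 4.45 to 10.4 CPM, T cell markers (6 genes) to 16.8 to 34.7 and 11.3 to 34.8 CPM, and B cell markers (5 genes) to 0.883 to 3.62 and 1.83 to 4.64 CPM in f/f and MKO. The part of these cells in the levels of the 10 genes was not tested.

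Most of the 10 genes were far less abundant in livers. No gene of the 15062 tested had an adjusted p under 0.05 between livers labelled MKO and f/f (edgeR, 0% of genes, lowest adjusted p 0.0634). Of the 10, 8 passed the filter on low counts, 1 of them was lower in livers labelled MKO at an unadjusted p under 0.05, where 5.18% of all genes were, and 0 were higher, where 5.27% were. DESeq2 called 269 genes, 0 of the 8 among them. The median log2 fold change of the 8 was 0.06 against -0.01 over all genes tested, and 4 of them were below 0.

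**Figure D3:**
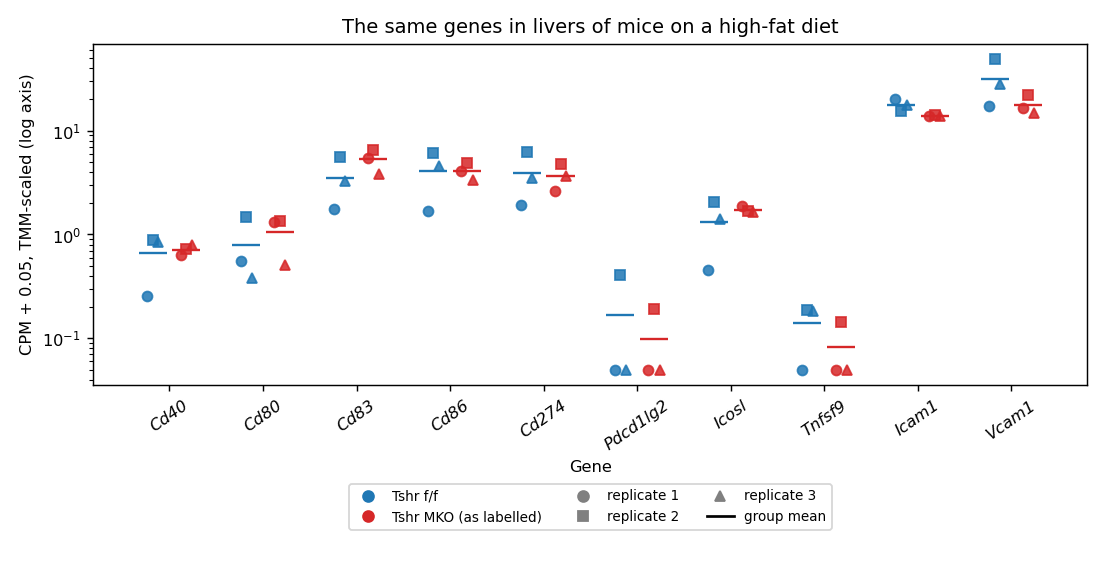
Level of each of the 10 genes in the 6 liver libraries, as TMM-scaled CPM plus 0.05 on a log axis so that libraries at 0 counts can be drawn, with 1 point per library and a line at each group mean. *Icam1* in livers labelled MKO lies between 13.7 and 14.0 CPM, below its 3 points in livers labelled f/f, and *Pdcd1lg2* and *Tnfsf9* lie at or near the bottom of the plot.

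*Icam1* was the gene that passed, with 20.3, 15.3 and 17.5 CPM in livers labelled f/f and 13.7, 14.0 and 13.8 CPM in those labelled MKO. The groups did not overlap, which held for 1 of the 8 in this direction, as for 7.74% of all genes, and for 0 of the 8 in the other, as for 9.60%. Its log2 fold change was -0.35 (SE 0.13, interval -0.65 to -0.06, adjusted p = 0.421; DESeq2 adjusted p = 0.286), and without f/f replicate 3, MKO replicate 1 or MKO replicate 3 the count of genes that passed was 0. *Vcam1* had 17.3, 48.3 and 28.1 CPM in livers labelled f/f and 16.3, 21.9 and 14.8 CPM in those labelled MKO, overlapping groups with a log2 fold change of -0.82 (SE 0.37, interval -1.70 to 0.06, adjusted p = 0.50). The sample names carry a first letter, A for f/f replicates 1 and 2 and MKO replicate 3 and B for the other 3, whose meaning is not given in the sources used here. *Icam1* in the MKO libraries was below the f/f libraries within each letter, and with the letter as a covariate its log2 fold change was -0.35 (adjusted p = 0.523) and that of *Vcam1* -0.85 (adjusted p = 0.593), and 0 of the 8 passed the unadjusted threshold.

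The other genes in liver overlapped between genotypes. *Cd83* had 1.69, 5.51 and 3.22 CPM in livers labelled f/f and 5.45, 6.43 and 3.79 CPM in those labelled MKO (log2 fold change 0.59, interval -0.44 to 1.61). *Cd86* had 1.62, 6.07 and 4.48 against 4.0, 4.81 and 3.33 CPM (-0.01, interval -1.08 to 1.07), and *Cd274* had 1.86, 6.15 and 3.45 against 2.60, 4.71 and 3.61 CPM (-0.07, interval -1.14 to 0.99). *Icosl* had 0.406, 2.01 and 1.36 against 1.82, 1.62 and 1.59 CPM (0.40, interval -0.85 to 1.66). *Cd80* had 0.508, 1.41 and 0.332 against 1.26, 1.29 and 0.46 CPM (0.41, interval -1.11 to 1.94), and *Cd40*, at 6 to 30 counts in each library, 0.203, 0.827 and 0.796 against 0.587, 0.667 and 0.743 CPM (0.12, interval -1.18 to 1.42). The intervals of these 6 leave room for a 2-fold difference or more in at least 1 direction, so a change of that size in that direction is not excluded.

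*Pdcd1lg2* and *Tnfsf9* did not pass the filter in liver. *Pdcd1lg2* had 0, 13 and 0 counts in livers labelled f/f and 0, 6 and 0 in those labelled MKO, and *Tnfsf9* had 0, 5 and 4 and 0, 4 and 0. A count of 0 allows a level of up to 0.0852 to 0.1036 CPM in the livers that had one (3 counts of the total, counting error alone).

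Markers of other cells differed between liver libraries. F/f replicate 2 was the highest f/f liver for 9 of the 10 genes and f/f replicate 1 the lowest for 8, *Icam1* being the reverse, and MKO replicate 2 was the highest MKO liver for 8. These numbers include *Pdcd1lg2* and *Tnfsf9*, which had 13 counts or fewer, and for *Pdcd1lg2* f/f replicates 1 and 3 tied at 0. Summed macrophage markers (7 genes, none at 0) were 123, 314 and 213 CPM in livers labelled f/f and 148, 294 and 128 CPM in those labelled MKO. *Lyz2* in this sum had 27.7, 59.9 and 44.7 against 1.56, 106 and 43.7 CPM. Without it the other 6 summed to 95.1, 254 and 168 against 146, 187 and 84.6 CPM. Summed Kupffer cell markers (5 genes) were 223, 590 and 436 against 389, 503 and 195 CPM. Endothelial markers (6 genes) summed to 42.3 to 163 CPM in f/f and 109 to 140 CPM in MKO, and stellate cell and fibroblast markers (8 genes) to 36.9 to 323 and 122 to 189 CPM. Neutrophil markers (6 genes) followed another order. They summed to 99.1, 30.3 and 8.49 CPM in livers labelled f/f and 9.58, 15.2 and 16.4 CPM in those labelled MKO. F/f replicate 1 was highest both for this sum and for *Icam1*, but the other f/f livers did not keep that order. F/f replicate 3, with the lowest sum, had 17.5 CPM of *Icam1* against 15.3 CPM in f/f replicate 2. All 5 neutrophil markers tested were below 0, with a median log2 fold change of -2.12, and *Ngp* (-2.24, adjusted p = 0.437) and *Ltf* (-2.29, adjusted p = 0.437) were lower at the unadjusted threshold. The share of these cells in the differences between liver libraries was not tested. In the pathway lists, as apart from the marker lists, 1 gene passed the unadjusted threshold in liver, *F11r*, which encodes the junctional adhesion molecule JAM-A, at -0.26 (SE 0.09, adjusted p = 0.396). Of the 21 CD40 and NF-kB genes 0 passed there, with a median of -0.13 and the lowest p for *Rel* (-0.43, adjusted p = 0.507).

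**Figure D4:**
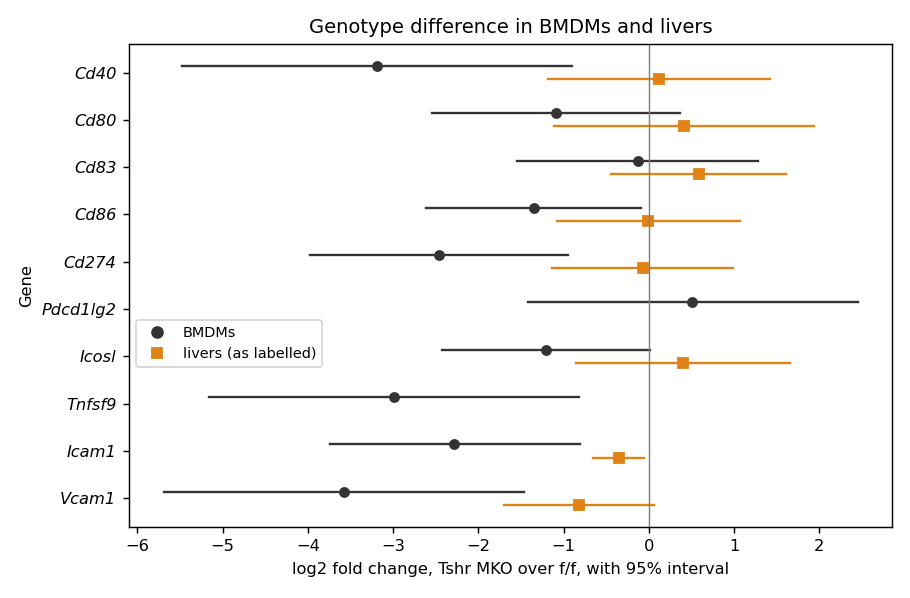
Log2 fold change of each gene, MKO over f/f, with its 95% interval from edgeR, in BMDMs (circles) and livers as labelled (squares). The BMDM intervals of *Vcam1*, *Cd40*, *Tnfsf9*, *Cd274*, *Icam1* and *Cd86* lie below 0, the liver interval of *Icam1* does too, and *Pdcd1lg2* and *Tnfsf9* have no liver value.

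Whether the genotype difference itself differed between BMDMs and livers was tested in a model of all 12 libraries. Of 17246 genes tested, 0% had an adjusted p under 0.05 with the more negative difference in BMDMs and 0.00580% (1 gene) with the more positive, and 0 of the 10 were among them, nor were any in DESeq2, which called 774 genes. At an unadjusted p under 0.05, 4 of the 10 were more negative in BMDMs, where 7.42% of all genes were, and 0 were more positive, where 7.12% were. These were *Cd40*, by -3.30 on the log2 scale (SE 1.23, adjusted p = 0.276), *Vcam1* by -2.76 (SE 0.99, adjusted p = 0.258), *Cd274* by -2.39 (SE 0.83, adjusted p = 0.25) and *Icam1* by -1.93 (SE 0.66, adjusted p = 0.24). Without f/f BMDM replicate 2, *Icam1* (-2.38, adjusted p = 0.0142), *Cd40* (-3.83, adjusted p = 0.0274) and *Vcam1* (-3.27, adjusted p = 0.0403) passed the adjusted threshold. In that fit 341 of all 17699 genes tested passed it in either direction, against 1 of 17246 with all 12 libraries. The liver side of this contrast changes sign if the liver labels are reversed. With the liver headings exchanged, a setting chosen after seeing the data, the same 4 genes were more negative in BMDMs at an unadjusted p under 0.05 (7.46% of all genes were) and 0 were more positive (6.62%). *Vcam1* then differed by -4.38 (adjusted p = 0.199), *Cd40* by -3.07 (adjusted p = 0.317), *Icam1* by -2.61 (adjusted p = 0.213) and *Cd274* by -2.52 (adjusted p = 0.272).

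Between tissues the 10 genes differed by much more. In f/f libraries 8 of the 10 were higher in BMDMs than in liver at an adjusted p under 0.05, where 29.6% of all 15931 genes tested were, and 0 were higher in liver, where 33.8% were. The log2 difference was 7.99 for *Tnfsf9* (SE 1.22, adjusted p = 0.00182, from 9 liver counts in all), 7.78 for *Cd274* (SE 0.92, adjusted p = 0.000668) and 7.57 for *Cd40* (SE 1.31, adjusted p = 0.00296). It was 4.63 for *Cd80*, 3.92 for *Icam1*, 3.78 for *Cd86*, 3.49 for *Icosl* and 2.67 for *Cd83*, with adjusted p of 0.00251 to 0.0145, and *Cd83* missed the threshold without f/f liver replicate 3 (adjusted p = 0.0562). *Pdcd1lg2*, at 2.71 (SE 1.20, adjusted p = 0.0911), and *Vcam1*, at 1.57 (SE 0.88, interval -0.56 to 3.71, adjusted p = 0.162), did not pass. *Vcam1* was the one gene whose BMDM and liver libraries overlapped, and its difference was 0.44 without f/f BMDM replicate 3 and 2.09 (adjusted p = 0.0275) without f/f BMDM replicate 2. Tissue, culture, TSH, diet and insulin all differ between these groups and cannot be told apart.

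**Figure D5:**
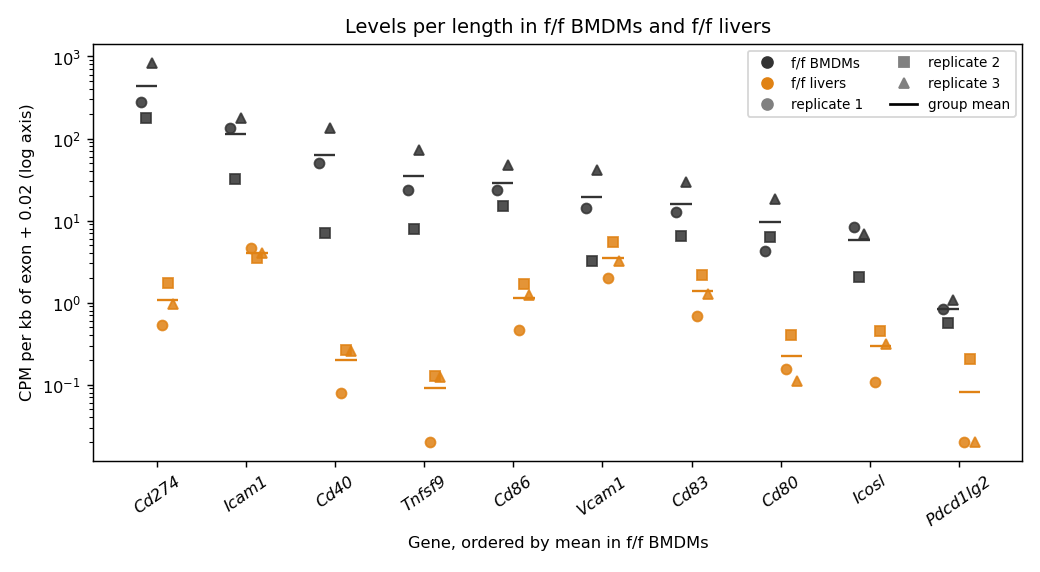
Level per length of each gene in the 3 f/f BMDM and 3 f/f liver libraries, as CPM per kb of exon plus 0.02 on a log axis, ordered by the BMDM mean, with 1 point per library and a line at each group mean. *Cd274* leads in BMDMs at 431 CPM per kb, whereas *Icam1* at 4.06 and *Vcam1* at 3.52 lead in liver. Scaling was done within each tissue, so BMDM and liver points are not on a common scale.

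The order of levels also differed. In livers labelled f/f, *Icam1* came first at 4.06 CPM per kb (SD 0.58) and *Vcam1* second at 3.52 (SD 1.77), with overlapping ranges, followed by *Cd83* at 1.35, *Cd86* at 1.11 and *Cd274* at 1.05, which overlapped as well. *Cd274* stood clear of *Icosl* at 0.273, and *Cd80* at 0.202, *Cd40* at 0.179, *Tnfsf9* at 0.0699 and *Pdcd1lg2* at 0.0609 made up the rest, none clear of its neighbour in range. Compared within libraries, *Vcam1* was above *Cd83*, *Cd83* above *Cd86* and *Cd40* above *Tnfsf9* in all 3 livers labelled f/f. In livers labelled MKO *Icam1* was clear of the rest at 3.18 CPM per kb (SD 0.0381), with *Cd83* at 2.03 and *Vcam1* at 1.99 behind it. *Cd274* counts were 6.06 to 17.6 times those of *Cd86* in BMDM libraries but 0.65 to 1.15 times in liver libraries, and *Icam1* counts were 2.12 to 7.44 times those of *Vcam1* in BMDMs but 0.317 to 1.18 times in livers.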

How the data were processed

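The authors deposited raw read counts for each gene in 12 strand-specific libraries (mm10; STAR, StringTie and FastQC 0.11.2 in the submitters' processing notes; Skewer in the study's methods). The counting program and its strand setting are not given in the sources used here. Lengths, positions and overlapping genes are from GENCODE M21 (GRCm38).

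Genes were tested per tissue with edgeR 4.0.16 (filterByExpr, TMM, robust quasi-likelihood) under R 4.3.3. P-values were adjusted by Benjamini-Hochberg across every gene tested, with a threshold of 0.05. The scripts were tested on simulated data. The 10 genes and all lists were chosen with earlier results of these data known. Named were the 10 genes, the 2 genes of lowest p in each list, and the 3 genes closest to each of the 10 by Pearson r (prior count 2); some genes that this rule names are not reported here. Others, and the promoter stretches but that of *Icam1*, were chosen after their values were seen. Replicate numbers were not used as pairs. Alternatives were other scalings and filters, 12 libraries in a fit, a block, DESeq2 1.42.0, the study's MARS model on summed counts, and leaving out each library.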

Additional observations from a re-analysis of the deposited data

How the results depend on the processing

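With 3 libraries per group, spread between f/f BMDM libraries sets what could be shown, and low counts limit *Cd40*, *Cd80*, *Pdcd1lg2* and *Tnfsf9* in liver. In BMDMs the number of the 10 genes with an adjusted p under 0.05 was 5 with DESeq2 and 10 with MARS, which has no term for spread between replicates and compares summed libraries, and 0 in each other setting; 2 were higher at an unadjusted p with MARS. The number lower at an unadjusted p was 4 to 7 with a library left out and 6 to 8 elsewhere. Over all genes it was 731 to 2299 with a library left out and 1035 to 4768 elsewhere. In liver MARS gave 3 genes with an adjusted p under 0.05 (*Icam1* and *Vcam1* lower, *Cd83* higher); at an unadjusted p it gave 2 lower and 3 higher, and the number lower was 2 with DESeq2 and 0 with all 12 libraries or the ID letter as a covariate, and 0 to 1 with a library left out, as was the number higher. The difference between tissues in the genotype effect had 0 to 3 genes with a library left out, and the number higher in BMDMs than in liver was 7 to 9, or 10 with library totals. For that difference in effect, 0 to 341 of all genes passed with a library left out. Signs turned for genes that did not pass. In BMDMs *Cd83* was 0.17 with library totals, 0.03 with the replicate block, 0.23 with MARS, and 0.61, 0.08 and 0.02 without f/f replicate 3, MKO replicate 1 and MKO replicate 2, from -0.59 to 0.61 over all libraries left out; *Pdcd1lg2* was -0.03 with the block and ran from -0.99 (without MKO replicate 3) to 0.93. In liver *Cd86* was 0.01 with no filter and with MARS, 0.00 with all 12 libraries, 0.15 with the block, and 0.40, 0.06 and 0.12 without f/f replicate 2, f/f replicate 3 and MKO replicate 3 (from -0.39 to 0.40); *Cd274* was 0.04 with the block, and 0.45 and 0.12 without f/f replicate 2 and MKO replicate 1 (from -0.40 to 0.45); without f/f replicate 1 *Cd40* was -0.30 and *Icosl* -0.02 (ranges -0.30 to 0.40 and -0.02 to 0.91). For the difference of effects, *Cd83* was 0.04 without f/f BMDM replicate 3 (from -1.23), *Pdcd1lg2* -4.05 without f/f liver replicate 2 (to 6.30) and *Tnfsf9* 2.35 without MKO liver replicate 2 (from -2.49); with the liver headings exchanged, chosen after seeing the data, *Cd83* was 0.47 and *Pdcd1lg2* -0.67. Over all genes, the number with an adjusted p under 0.05 was 0 in the reported edgeR fits of BMDMs and of livers, 1223 and 269 with DESeq2, and 13223 and 9389 with MARS. Other edgeR settings above 0 were, in BMDMs, 150 with all 12 libraries, 1 with the block, and 13 and 2 without f/f replicates 2 and 3, and in liver 1 with no filter, and 7 and 2 without f/f replicate 2 and MKO replicate 3. The cause of these changes was not tested. The labels do not say whether replicate numbers pair the samples. Same-numbered libraries correlated in their deviations at 0.096, 0.013 and 0.102 in BMDMs and -0.056, 0.217 and -0.021 in liver, which cannot exclude pairing. A replicate block gave 7 genes lower in BMDMs, 1 in liver and 8 between tissues. In BMDMs the block lowered the SE of *Cd86* from 0.52 to 0.16 and that of *Cd80* from 0.60 to 0.27. The SE of *Cd40* alone rose, from 0.95 to 0.99.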
